A study of Mus musculus with 10 samples.

Results

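The p53 target genes described here are Cdkn1a, Mdm2, Ccng1, Trp53inp1, Phlda3, Eda2r, Aen, Plk2, Btg2 and Zmat3, 10 of the 22180 genes measured. Each was read from the brightest probe set that carries its symbol alone, and each of the 10 has 1 such probe set. RNA came from cultured mouse cortical neurons, made by dissociating the cortex of embryos at embryonic day 14.5 to 15.5 and treated on day 7 in vitro for 12 hours. The groups were ATF4-deficient neurons with 5 µM sodium arsenite (KO-ARS, 2 arrays), ATF4-deficient neurons with vehicle (KO-Ctrl, 2 arrays), wildtype neurons with 5 µM sodium arsenite (WT-ARS, 4 arrays) and wildtype neurons with vehicle (WT-Ctrl, 2 arrays). The sources used here name neither the mutant allele nor the strain. Replicates are labelled as biological, without a statement on which embryos or cultures each came from. The p-values rest on the spread among these arrays alone. All levels below are log2 expression values, and all differences are log2 differences with the arsenite or ATF4-deficient group on top.

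The transcription factor p53 is stabilised after DNA damage and other stresses and activates genes that stop the cell cycle, repair DNA or drive cell death. Mdm2, one of its own targets, marks p53 for degradation and so closes a feedback loop. In postmitotic neurons p53 is best known for its part in neuronal death, and several of its targets also answer to other signals, such as synaptic activity. Arsenite is an oxidative stressor that activates the integrated stress response, in which ATF4 is the main transcription factor, and the NRF2 antioxidant response.

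The Atf4 probe set lay at 7.48 to 7.70 on the 4 ATF4-deficient arrays and at 9.09 to 9.91 on the 6 wildtype arrays, a difference of -1.92 averaged over treatments (limma, adjusted p = 9.65e-05). Hmox1, the heme oxygenase gene that NRF2 activates, rose with arsenite by 2.71 averaged over genotypes (limma, adjusted p = 0.000378). Both calls held whichever 1 of the 10 arrays was left out. All 10 neuron markers lay above a dim level of 6.63, the 90th percentile of olfactory and vomeronasal receptor genes. So did 11 of 12 astrocyte markers, whose mean level per array was 7.60 to 7.99 in KO-ARS, 7.64 to 8.11 in KO-Ctrl, 8.15 to 8.72 in WT-ARS and 8.75 to 9.00 in WT-Ctrl. Of 9 microglia markers, 5 lay above the dim level and 4 (Csf1r, P2ry12, Itgam and Ptprc) under it, with a mean level per array of 6.63 to 6.79 in KO-ARS, 6.78 to 6.88 in KO-Ctrl, 6.69 to 6.75 in WT-ARS and 6.72 to 6.76 in WT-Ctrl. Array medians were 6.75 to 6.81, and 1 array lay far from the rest: on the leading principal component KO-ARS replicate 2 scored 29.4, and the other 9 arrays between -18.2 and 8.70.

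None of the 10 p53 target genes passed the test in any of the 7 comparisons made, at an adjusted p under 0.05 in limma. In ATF4-deficient neurons, 0 of 10 were called for arsenite against vehicle, where 1.15% of all genes were called. In wildtype neurons 0 of 10 were called, against a background of 0.482%. For ATF4-deficient against wildtype neurons, 0 of 10 were called under arsenite (background 0.343%) and 0 of 10 under vehicle (background 0.433%). Averaging over genotypes, 0 of 10 were called for arsenite (background 3.07%), and averaging over treatments, 0 of 10 for genotype (background 1.82%). For the difference between the arsenite responses of the genotypes, 0 of 10 and 0% of all genes were called, while 0 members and 6% of all genes had an unadjusted p under 0.05.

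Since 0 of 10 is near each of these backgrounds, the counts are no result about the members, and the intervals bound what could have been seen. With the spread of these arrays, the smallest difference that would have been called in wildtype neurons ran from 0.49 for Plk2 (1.41-fold) to 1.04 for Trp53inp1 (2.06-fold). In ATF4-deficient neurons it ran from 0.51 to 1.08. The members' absolute arsenite differences had a median of 0.11 in ATF4-deficient neurons, where that of all genes was 0.11, and of 0.10 in wildtype neurons, where that of all genes was 0.09. Their signed medians were 0.06 in ATF4-deficient neurons and 0.02 in wildtype neurons, beside -0.01 and -0.02 for all genes in the same 2 comparisons. At an unadjusted p under 0.05, arsenite gave 0 members in ATF4-deficient neurons (background 12%) and 1, Plk2, in wildtype neurons (background 10.9%).

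**Figure D1:**
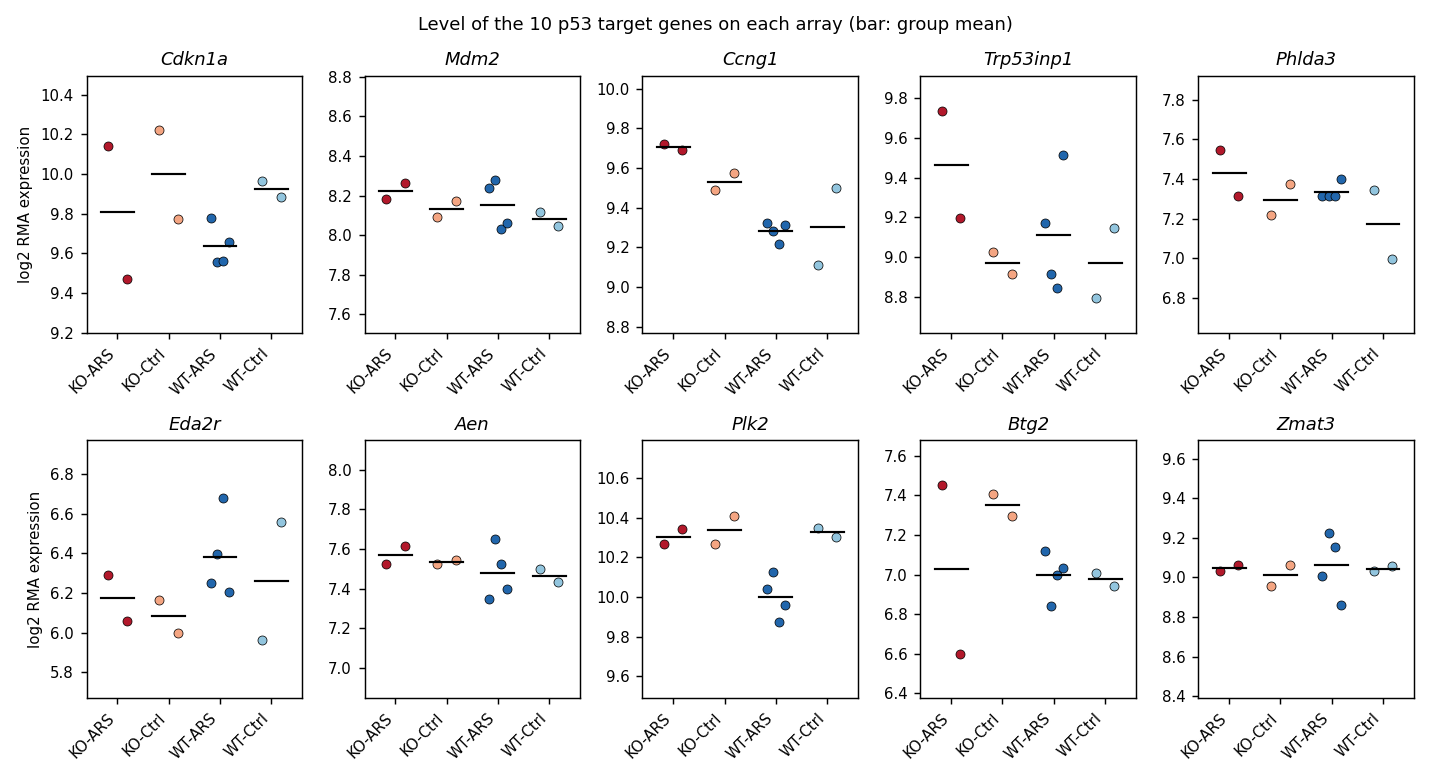
Log2 expression of each p53 target gene on every array, with 1 panel per gene and its own vertical axis. Points are single arrays and bars are group means for KO-ARS, KO-Ctrl, WT-ARS and WT-Ctrl. The 4 wildtype arsenite arrays of Plk2 lie at 9.87 to 10.13, below all other arrays, and the KO-ARS arrays of Btg2 lie far apart, at 7.45 and 6.60.

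The members that act on the cell cycle and on p53 itself come first. Cdkn1a encodes p21, the inhibitor of cyclin-dependent kinases that carries much of the p53 arrest. Ccng1 encodes cyclin G1, which brings a phosphatase to Mdm2. A promoter window of each gene, 250 bases before to 50 bases after an annotated start in RefSeq (GRCm38.p6), holds a match to the p53 consensus, which is a pair of adjoining 10-base sites, with 1 mismatch. They are shown because such a match was found in 0.067% of 32851 promoter windows. The capitals mark the 20 matched bases, -51 to -32 from 1 start of Cdkn1a and -195 to -176 from the start of Ccng1.
Cdkn1a, chr17:29090898-29090977, plus strand: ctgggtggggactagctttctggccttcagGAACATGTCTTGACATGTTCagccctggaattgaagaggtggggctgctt
Ccng1, chr11:40755432-40755511, minus strand: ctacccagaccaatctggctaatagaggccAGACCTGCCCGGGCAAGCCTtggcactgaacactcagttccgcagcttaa
The window of a second annotated start of Cdkn1a came no closer than 7 mismatches. Of the 8 members with a window, 2 held a match with up to 1 mismatch and 3 with up to 3. The windows of Mdm2 and Eda2r came no closer than 9 mismatches, and that of Phlda3 no closer than 5. The consensus reads the same on both strands, and the central C and G of each 10-base site had to match. A match is a description of these letters and not a measured binding site.

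Cdkn1a lay at 10.14 and 9.47 in KO-ARS, at 10.22 and 9.77 in KO-Ctrl, at 9.78, 9.56, 9.56 and 9.66 in WT-ARS and at 9.97 and 9.88 in WT-Ctrl. All 4 wildtype arsenite arrays were below both wildtype vehicle arrays, while the ATF4-deficient groups overlapped. The arsenite difference was -0.19 ± 0.20 (SE) in ATF4-deficient neurons (95% interval -0.63 to 0.25, limma adjusted p = 0.775). In wildtype neurons it was -0.29 ± 0.17 (SE), with an interval of -0.67 to 0.09 (limma adjusted p = 0.609). The estimate for this arrest gene was thus negative in both genotypes, with intervals on both sides of 0. The ATF4-deficient value turned on single arrays: it was -0.53 without KO-ARS replicate 1 and 0.14 without KO-ARS replicate 2.

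Ccng1 lay at 9.72 and 9.69 in KO-ARS, at 9.49 and 9.58 in KO-Ctrl, at 9.32, 9.28, 9.22 and 9.31 in WT-ARS and at 9.11 and 9.50 in WT-Ctrl. Under arsenite both ATF4-deficient arrays exceeded all 4 wildtype arrays, and under vehicle the genotypes overlapped. The genotype difference under arsenite was 0.42 ± 0.11 (SE), or 1.34-fold, with an interval of 0.19 to 0.65 (limma adjusted p = 0.154). Under vehicle it was 0.23 ± 0.12 (SE; adjusted p = 0.559 in limma), with 0.03 without WT-Ctrl replicate 1 and 0.42 without WT-Ctrl replicate 2. Averaged over treatments it was 0.32 ± 0.081 (SE), with an adjusted p of 0.0752 in limma, the smallest of any member in any of the 7 comparisons. The averaged value was 0.23 without WT-Ctrl replicate 1 and 0.42 without WT-Ctrl replicate 2 (limma adjusted p = 0.176 and 0.0502). With all arrays it passed the threshold once genes under the dim level were left out (0.32, adjusted p = 0.0483 in limma). Arsenite itself gave 0.17 in ATF4-deficient and -0.02 in wildtype neurons for Ccng1, both with intervals across 0.

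Mdm2 lay at 8.18 and 8.26 in KO-ARS, at 8.09 and 8.17 in KO-Ctrl, at 8.24, 8.28, 8.03 and 8.06 in WT-ARS and at 8.12 and 8.05 in WT-Ctrl. Its whole range over the 10 arrays was thus narrow, and wildtype arsenite arrays lay on both sides of the vehicle arrays. The arsenite difference was 0.09 in ATF4-deficient neurons (interval -0.15 to 0.33) and 0.07 in wildtype neurons (interval -0.14 to 0.28). For this feedback gene of the pathway, a rise above 0.33 in ATF4-deficient or 0.28 in wildtype neurons lay outside the 95% interval. Mdm4, the related inhibitor of p53 that is not a member, had arsenite differences of 0.18 in ATF4-deficient and 0.11 in wildtype neurons and was called in no comparison.

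**Figure D2:**
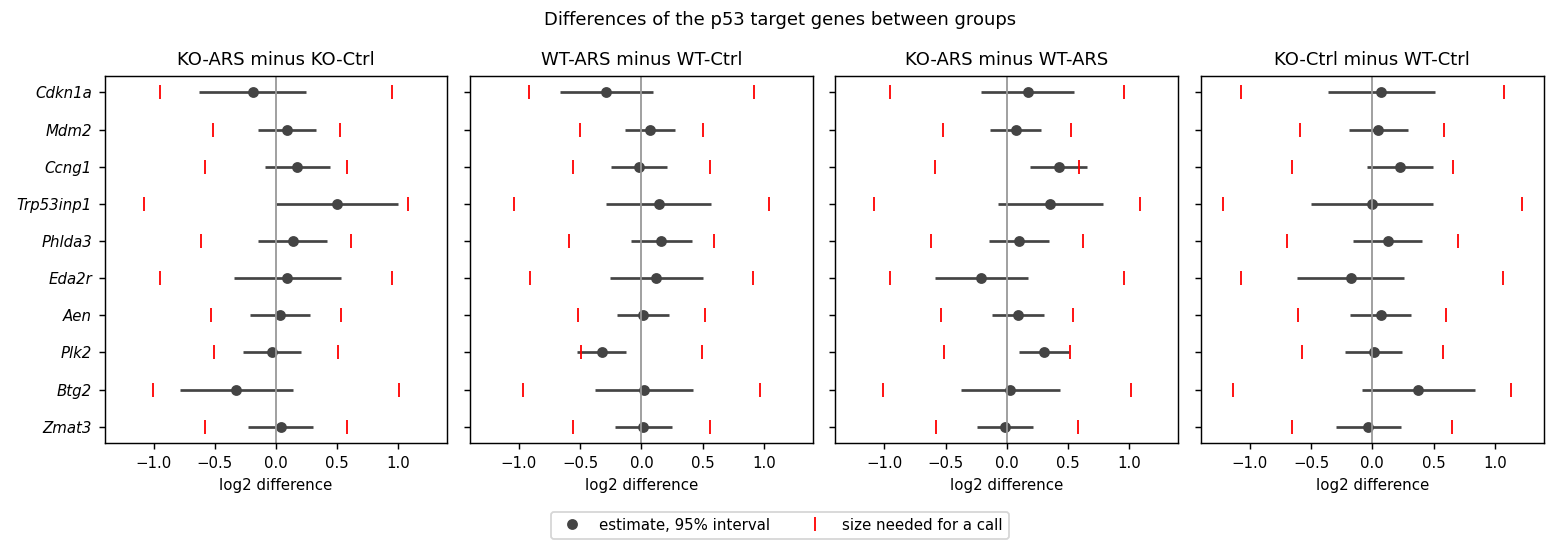
Log2 difference of each p53 target gene in 4 comparisons, 1 panel each: arsenite minus vehicle in ATF4-deficient and wildtype neurons, and ATF4-deficient minus wildtype under arsenite and vehicle. Points are estimates, bars are 95% intervals, and red ticks mark the size that would have been called. No point passes its ticks. The intervals of Plk2 (wildtype arsenite; genotype under arsenite) and of Ccng1 (genotype under arsenite) leave out 0.

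Plk2 and Btg2 are p53 targets that neurons also induce with synaptic activity. Plk2 encodes a polo-like kinase that acts at synapses, and Btg2 an antiproliferative protein linked to mRNA deadenylation. The RefSeq windows of both hold the cyclic AMP response element TGACGTCA, which reads the same on both strands and occurs in 1.79% of all windows. The element, in capitals, lies at -62 to -55 from the start of Plk2 and at -166 to -159 from the start of Btg2.
Plk2, chr13:110394952-110395019, plus strand: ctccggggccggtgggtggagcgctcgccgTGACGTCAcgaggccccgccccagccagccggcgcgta
Btg2, chr1:134079284-134079351, minus strand: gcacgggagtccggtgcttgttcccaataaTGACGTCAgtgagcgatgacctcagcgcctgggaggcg
No p53 consensus with up to 3 mismatches was found in these 2 windows, which says only that these letters are not there.

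Plk2 lay at 10.27 and 10.34 in KO-ARS, at 10.27 and 10.41 in KO-Ctrl, at 10.04, 10.13, 9.87 and 9.96 in WT-ARS and at 10.35 and 10.30 in WT-Ctrl. The 4 wildtype arsenite arrays were the lowest of the 10, and the other groups shared 1 range. In wildtype neurons the arsenite difference was -0.33 ± 0.093 (SE), or 0.798-fold, with an interval of -0.53 to -0.12 (limma adjusted p = 0.190). In ATF4-deficient neurons it was -0.03 (interval -0.27 to 0.20). The genotype difference under arsenite was 0.30 ± 0.093 (SE; adjusted p = 0.239 in limma) and under vehicle 0.01. The test of the difference between the 2 arsenite responses gave 0.29, with an interval of -0.02 to 0.60 and an adjusted p of 0.839 in limma, so the responses were not shown to differ.

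Btg2 lay at 7.45 and 6.60 in KO-ARS, at 7.41 and 7.30 in KO-Ctrl, at 7.12, 6.84, 7.00 and 7.03 in WT-ARS and at 7.01 and 6.94 in WT-Ctrl. The 2 KO-ARS arrays held the highest and the lowest value of all 10 arrays. The arsenite difference was -0.33 ± 0.21 (SE) in ATF4-deficient neurons (limma adjusted p = 0.603) and 0.02 in wildtype neurons. Without KO-ARS replicate 1 the ATF4-deficient difference was -0.75 and was called (limma adjusted p = 0.0463), and without KO-ARS replicate 2 it was 0.10 (limma adjusted p = 0.921). KO-ARS replicate 2 is the array that stood apart over all genes. Under vehicle both ATF4-deficient arrays exceeded both wildtype arrays, by 0.37 ± 0.21 (SE; adjusted p = 0.578 in limma).

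Fos and Npas4, activity-induced transcription factor genes, are shown as context for these 2 genes. Fos lay at 7.13 and 6.35 in KO-ARS, at 8.50 and 8.22 in KO-Ctrl, at 7.00, 6.66, 6.77 and 6.95 in WT-ARS and at 7.02 and 7.02 in WT-Ctrl. The 2 KO-Ctrl arrays were the highest for both genes. The arsenite difference of Fos was -1.62 in ATF4-deficient neurons (limma adjusted p = 0.00686, and 0.0614 without KO-Ctrl replicate 1) and -0.18 in wildtype neurons (limma adjusted p = 0.807). That of Npas4 was -1.77 in ATF4-deficient neurons (limma adjusted p = 0.00198) and -0.45 in wildtype neurons (limma adjusted p = 0.298). The difference between the genotypes' responses was called for neither gene (limma adjusted p = 0.439 for Fos and 0.340 for Npas4). Averaged over genotypes, Fos fell by 0.90 with arsenite (limma adjusted p = 0.00733) and Npas4 fell by 1.11 (limma adjusted p = 0.00117), and both calls held whichever 1 of the 10 arrays was left out. Over 19 activity-regulated genes the median arsenite difference was -0.57 in ATF4-deficient and -0.26 in wildtype neurons. For 5 of the 19 the arsenite difference was higher in ATF4-deficient than in wildtype neurons, Egr3 among them (-0.26 and -0.80). Whether the values of Plk2 and Btg2 follow activity was not tested.

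**Figure D3:**
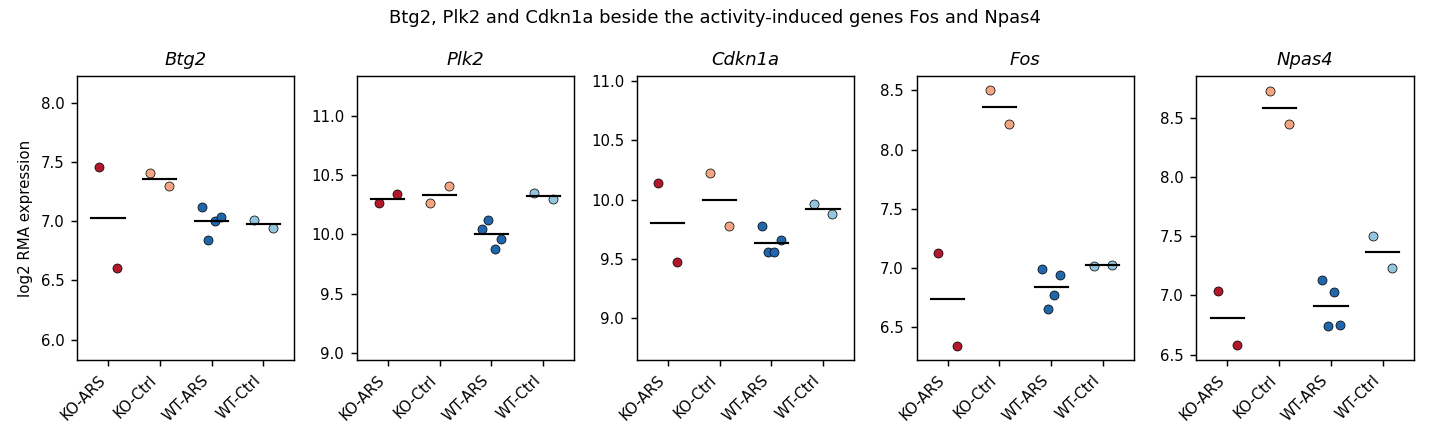
Log2 expression on every array of Btg2, Plk2 and Cdkn1a beside the activity-induced genes Fos and Npas4, for KO-ARS, KO-Ctrl, WT-ARS and WT-Ctrl. Points are arrays and bars are group means. Fos and Npas4 stand highest in KO-Ctrl, at 8.22 to 8.72, while Plk2 has its low group in WT-ARS.

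The remaining members act mostly in cell death and survival signalling. Trp53inp1 encodes a stress-induced protein that acts with p53 in apoptosis and in autophagy. It lay at 9.73 and 9.20 in KO-ARS, at 9.03 and 8.92 in KO-Ctrl, at 9.17, 8.92, 8.84 and 9.51 in WT-ARS and at 8.79 and 9.15 in WT-Ctrl. Both KO-ARS arrays were above both KO-Ctrl arrays, and the wildtype groups overlapped. Its arsenite difference in ATF4-deficient neurons, 0.50 ± 0.23 (SE) or 1.41-fold, was the largest positive one of any member, with an interval that just included 0 (lower bound -0.0023) and a limma adjusted p of 0.418. It was 0.23 without KO-ARS replicate 1 and 0.76 without KO-ARS replicate 2. In wildtype neurons it was 0.14 ± 0.20 (SE; adjusted p = 0.876 in limma).

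Aen encodes an apoptosis-enhancing nuclease. Its RefSeq window holds the p53 consensus with 3 mismatches, at +11 to +30 from 1 annotated start and -121 to -102 from the other, and windows with up to 3 mismatches made up 1.38% of all.
Aen, chr7:78895937-78895956, plus strand: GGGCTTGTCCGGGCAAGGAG
Here the whole sequence is the match. Aen lay at 7.52 and 7.61 in KO-ARS, at 7.52 and 7.55 in KO-Ctrl, at 7.35, 7.65, 7.52 and 7.40 in WT-ARS and at 7.50 and 7.44 in WT-Ctrl. Its arsenite differences were 0.03 in ATF4-deficient neurons (interval -0.21 to 0.28) and 0.01 in wildtype neurons (interval -0.20 to 0.23).

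Phlda3 encodes a repressor of AKT survival signalling. It lay at 7.55 and 7.31 in KO-ARS, at 7.22 and 7.37 in KO-Ctrl, at 7.31, 7.31, 7.31 and 7.40 in WT-ARS and at 7.35 and 7.00 in WT-Ctrl. Arsenite and vehicle overlapped in each genotype, with differences of 0.14 in ATF4-deficient and 0.16 in wildtype neurons. Eda2r, a receptor of the tumour necrosis factor receptor family, averaged 6.17 ± 0.17 in KO-ARS, 6.08 ± 0.12 in KO-Ctrl, 6.38 ± 0.21 in WT-ARS and 6.26 ± 0.42 in WT-Ctrl (SD, n = 2, 2, 4 and 2). These means lay under the dim level, so its signal was not clearly above that of the receptor genes that set this level, whose median was 4.52. The arsenite differences of Eda2r were 0.09 in ATF4-deficient neurons (interval -0.34 to 0.53) and 0.12 in wildtype neurons (interval -0.26 to 0.50). Zmat3, an RNA-binding zinc finger protein gene, ranged only from 8.86 to 9.22 over the 10 arrays, and its arsenite differences were 0.04 in ATF4-deficient and 0.02 in wildtype neurons.

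Groups that do not overlap are common with so few arrays. In ATF4-deficient neurons both arsenite arrays exceeded both vehicle arrays for Mdm2, Ccng1 and Trp53inp1, 3 of 10 members, where 18.1% of all genes did so, and 0 members were lower (background 20.7%). In wildtype neurons all arsenite arrays were lower for Cdkn1a and Plk2, 2 of 10 (background 12.7%), and higher for 0 (background 7.86%). Under arsenite, ATF4-deficient arrays were all higher for Ccng1 and Plk2, 2 of 10 (background 10.6%), and lower for 0 (background 7.95%). Under vehicle they were all higher for Aen and Btg2, 2 of 10 (background 21.2%), and lower for 0 (background 21.4%). The comparisons share groups, so these counts are not independent of each other.

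Of the members' genotype differences, 8 of 10 were positive under arsenite and 7 of 10 under vehicle. Their median was 0.09 under arsenite and 0.06 under vehicle, beside 0.02 and 0.00 for all genes. At an unadjusted p under 0.05, Ccng1 and Plk2 differed under arsenite (2 of 10, background 12.1%) and no member under vehicle (background 10.9%). Averaged over treatments the same 2 genes passed that mark (background 16.3%), and for arsenite averaged over genotypes Plk2 alone did (background 16.1%). The 12 astrocyte markers had a median genotype difference of -0.65 under arsenite, where 1 was called lower, and of -1.07 under vehicle, where 1 was called lower. Averaged over treatments their median was -0.87, and 8 of the 12 were called lower (background 1.82%). With 1 array left out that median ran from -1.01 to -0.74. The count called lower was less stable: it depended on which array was left out and could be far smaller. Gfap, the classical astrocyte filament gene, was lower in ATF4-deficient neurons under vehicle (-0.69, limma adjusted p = 0.0473), a call lost without any 1 of 8 arrays and kept without either KO-ARS array. Averaged over treatments, 3 of 8 oligodendrocyte lineage markers were also called lower (median -0.15), and 0 higher. So were 2 of 12 progenitor and cycling cell markers (median -0.14), with 0 higher. Of 10 neuron markers, 1 was called higher and 1 lower. These counts too depended on which array was left out. In these bulk cultures fewer cells of a type and less RNA per cell cannot be told apart. The part of the astrocyte share, or that of other cell types, in the members' genotype values was not tested.

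Of 46 other genes of the p53 pathway, 40 were measured, and the gene of p53 itself was not analysed here. Of these 40, 1 was called higher with arsenite in ATF4-deficient neurons (Atm, background 1.15%). A different gene, Sesn2, was the only 1 called higher in wildtype neurons (background 0.482%). None were called lower in either genotype. Under arsenite 0 of 40 were higher and 1 was lower in ATF4-deficient than in wildtype neurons (background 0.343%), and 0 of 40 were called under vehicle (background 0.433%). The medians over the 40 were 0.05 for arsenite in ATF4-deficient neurons, 0.02 for arsenite in wildtype neurons, 0.04 for genotype under arsenite and -0.00 for genotype under vehicle. The 9 measured cell death targets, among them Bbc3, Fas and Apaf1, had 0 calls in any of the 7 comparisons, whose backgrounds ran from 0% to 3.07%, and 4 of these 9 lay above the dim level.

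Sesn2, which encodes the leucine sensor Sestrin 2 and is also known as a target of ATF4, lay at 7.11 and 7.01 in KO-ARS, at 7.38 and 6.89 in KO-Ctrl, at 8.50, 9.17, 8.71 and 9.10 in WT-ARS and at 7.12 and 7.94 in WT-Ctrl. All 4 wildtype arsenite arrays were above every other array. It rose by 1.34 ± 0.24 (SE) in wildtype neurons (limma adjusted p = 0.0411), a call that was lost without 8 of the 10 arrays in turn and kept only without WT-Ctrl replicate 2 or WT-ARS replicate 1 (values from 0.93 to 1.75). In ATF4-deficient neurons its difference was -0.07. Its arsenite responses in the 2 genotypes differed by -1.41, which was not called (limma adjusted p = 0.724). Under arsenite it was lower in ATF4-deficient neurons, with a difference of -1.81 ± 0.24 (SE; limma adjusted p = 0.0102), a call lost without KO-ARS replicate 1 (0.0785) or replicate 2 (0.136). Averaged over treatments the difference was -1.10 (limma adjusted p = 0.0146), a call lost without WT-Ctrl replicate 2 (0.0745), KO-Ctrl replicate 2 (0.0952) or KO-ARS replicate 2 (0.0588).

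Atm, the kinase that signals DNA breaks to p53, lay at 8.37 and 8.42 in KO-ARS, at 7.82 and 7.82 in KO-Ctrl, at 8.18, 8.23, 8.12 and 8.18 in WT-ARS and at 7.93 and 8.00 in WT-Ctrl. Every arsenite array was above every vehicle array in both genotypes. It rose by 0.58 ± 0.090 (SE) in ATF4-deficient neurons (limma adjusted p = 0.0155), which was lost without KO-Ctrl replicate 1 (0.0874), KO-Ctrl replicate 2 (0.102) or KO-ARS replicate 2 (0.102). In wildtype neurons its difference was 0.21 (limma adjusted p = 0.319), and the responses of the genotypes differed by 0.36 (limma adjusted p = 0.753). Averaged over genotypes it rose by 0.39 (limma adjusted p = 0.00623), and this call held whichever 1 of the 10 arrays was left out. Ercc5, a nuclease of nucleotide excision repair, was higher by 0.37 in ATF4-deficient neurons averaged over treatments (limma adjusted p = 0.0487), a call lost without any 1 of the 10 arrays (adjusted p of 0.0549 to 0.220).

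**Figure D4:**
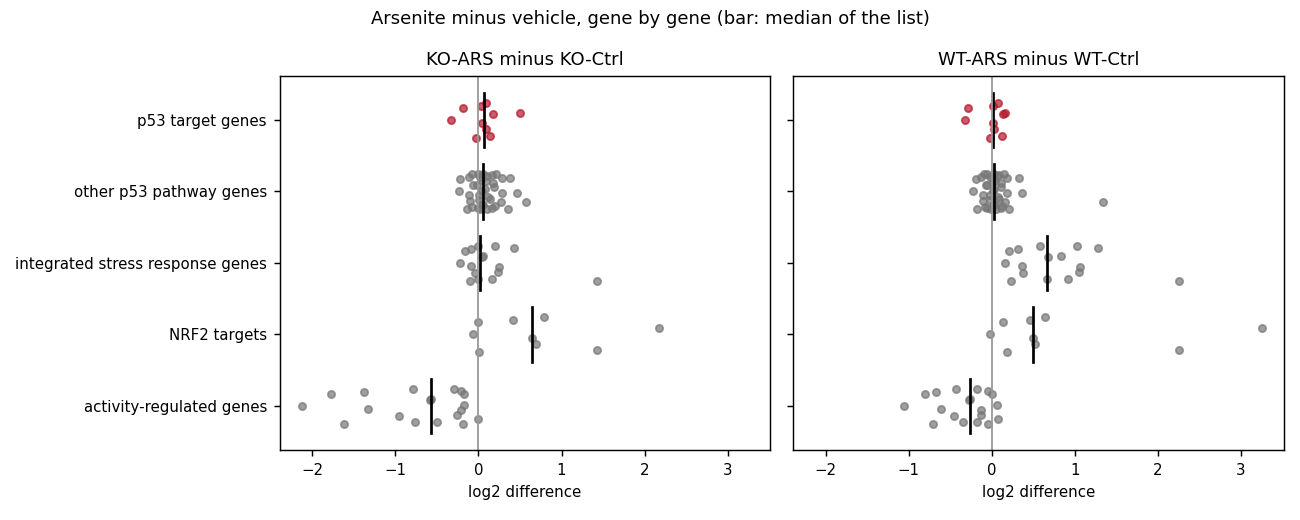
Log2 difference with arsenite for each gene of the p53 target list, the other p53 pathway genes and the activity-regulated, integrated stress response and NRF2 lists, in ATF4-deficient and wildtype neurons. Each point is a gene and each bar a list median. The p53 target genes lie between -0.33 and 0.50, around medians of 0.06 and 0.02, while the NRF2 medians are 0.65 and 0.49.

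The other stress lists give the scale of the responses in the same arrays. The 9 measured NRF2 targets had a median arsenite difference of 0.65 in ATF4-deficient and 0.49 in wildtype neurons. The 16 integrated stress response genes had medians of 0.02 in ATF4-deficient and 0.67 in wildtype neurons. The difference between the genotypes' responses had a median of -0.67 over these 16. It was called for 0 of them and for 0% of all genes. Slc7a11 belongs to both of these lists. The p53 target genes, at medians of 0.06 in ATF4-deficient and 0.02 in wildtype neurons, were nearer to all genes than these lists were, except for the integrated stress response list in ATF4-deficient neurons. These are descriptions of lists chosen with results of these data known.

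The members did not all vary together over the 10 arrays, and pairs of all genes were not computed for comparison. Among the 45 pairs of members, Pearson's r had a median of 0.06 and ran from -0.60 to 0.81, with 26 pairs above 0. Cdkn1a was most like Btg2 among the members (r = 0.81), which ranked at place 118 of 13523 genes above the dim level, and both genes had a low value on KO-ARS replicate 2. With Plk2 its r was 0.40 and with Mdm2 -0.27. The 5 genes most like Cdkn1a were Baiap2l2 (r = 0.951), Mir543 (r = 0.919), Naxe (r = 0.919), Hagh (r = 0.918) and Tceal8 (r = 0.918). The arrays share groups and normalization, so these values are descriptions over 10 points.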

How the data were processed

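The authors deposited log2 expression values of 10 Affymetrix arrays, made with RMA (robust multiarray averaging) in Partek 6.6, per the submitters' processing notes and the design text. RMA normalizes at the level of probes, before 1 value per probe set is computed, and can hide a shift common to most transcripts. Scanner files were not used here, and precision is limited by how few arrays each group holds. Of 41345 probe sets, 23521 carry 1 symbol in the platform annotation, 1814 several and 16010 have no entry. Where a gene had several (1082 genes), the brightest was used, which gave 22180 genes.

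Groups came from the sample titles. The 4 group means were estimated in a single fit with limma 3.58.1 (R 4.3.3), leaving 6 residual degrees of freedom, and p-values were adjusted by Benjamini-Hochberg over all genes. The script was tested on simulated data. Alternatives were array weights, equal medians, averaged probe sets, a robust trended moderation, leaving out dim genes, the compared groups alone, a replicate block and leaving out each array.

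All 10 members were described. Other p53 pathway genes were named where called (at most 6 a comparison), with Mdm4, Atf4, Hmox1, Fos, Npas4 and Gfap named in any case, and for likeness the 5 genes of highest correlation with Cdkn1a. The members and lists were chosen with earlier results of these data known. Promoter windows are from RefSeq (GRCm38.p6) and were matched by symbol for 8 of 10 members, all but Trp53inp1 and Zmat3. The sources used here do not name the build of the array design.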

Additional observations from a re-analysis of the deposited data

Results flagged for a closer look

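Phlda3 on wildtype arsenite replicate 4 lay at 7.40, apart from the other 3 wildtype arsenite arrays, which all held the same value of 7.31. Its gap to the nearest array was the whole range of that group, as it would be for any other value beside 3 identical ones. Of 19 groups tested in this way, each the WT-ARS arrays of 1 gene, 1 was picked out. Chance picks about 1 in 20 where values are not tied, so that rate does not apply to Phlda3.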

How the results depend on the processing

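The count of p53 target genes called was 0 in each of the 7 comparisons and stayed at 0 under most alternatives. Leaving out 1 array gave 0 to 1 for arsenite in ATF4-deficient neurons and 0 to 1 for arsenite averaged over genotypes. In both the call was Btg2 without KO-ARS replicate 1, at -0.75 (limma adjusted p = 0.0463) and -0.37 (limma adjusted p = 0.0464). Leaving out dim genes gave 1 call, Ccng1, for genotype averaged over treatments. The cause of these changes was not tested. Of 1153 recomputed member values 71 changed sign, 67 of them with an array left out. Same-numbered samples of different groups did not deviate together throughout (12 correlations from -0.06 to 0.40). Correlations with WT-Ctrl arrays were -0.06 to 0.09, and those among the other groups 0.09 to 0.40. In groups of 2 arrays the deviations mirror each other, so some of these values repeat. They do not settle whether the numbers pair samples, and the main fit did not pair them. With the replicate block the members called stayed at 0 in all 7 comparisons. Only WT-ARS holds replicates 3 and 4, so the block gave each of these arrays its own term. They then no longer counted towards the WT-ARS mean. Changes with the block therefore mix pairing with the loss of these arrays. The block ended 3 calls of other p53 genes: Sesn2 for arsenite in wildtype neurons (adjusted p = 0.132), Sesn2 for genotype under arsenite (0.0851) and Ercc5 (0.0836), all in limma. With only the compared groups in the fit, Atm in ATF4-deficient neurons (0.255) and Sesn2 in wildtype neurons (0.0902) were not called. Ercc5 was also lost with equal medians (0.0694) and array weights (0.0551). Counts over all genes moved more. Those for arsenite in ATF4-deficient neurons were 256, 50 to 200 without 1 array, 135 with array weights and 0 with the compared groups alone. Those for arsenite in wildtype neurons were 107, 0 to 75 without 1 array, 186 with array weights, 162 without dim genes, 11 with the compared groups alone and 17 with the block. For genotype under arsenite they were 76, 1 to 64 without 1 array, 40 with array weights, 41 with the compared groups alone and 4 with the block. For genotype under vehicle they were 96, 0 to 99 without 1 array, 228 with array weights, 193 without dim genes, 0 with the compared groups alone and 165 with the block. Without 1 array they were 242 to 654 for arsenite averaged over genotypes (682 with all) and 58 to 377 for genotype averaged over treatments (404 with all). With the block these 2 counts rose, to 759 and 516, as did that for arsenite in ATF4-deficient neurons, to 286. Signal near the dim level limits what can be said of Eda2r.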

Other observations

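Identical values recur across arrays for 3 of the 10 p53 target genes. Phlda3 was at exactly 7.31301 on 4 arrays, KO-ARS replicate 2 and WT-ARS replicates 1, 2 and 3. Aen was at 7.52217 on 3 arrays (KO-ARS replicate 1, KO-Ctrl replicate 1 and WT-ARS replicate 3), and Zmat3 at 9.06415 on 2 arrays (KO-ARS replicate 2 and KO-Ctrl replicate 2). Over all genes, 7837 of 22180 (35.3%) had a value that recurred on at least 2 arrays, and 1382 (6.23%) had one on 4 or more. No 2 arrays were identical as a whole, and correlations between arrays ran from 0.982 to 0.994.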
